A study of Homo sapiens with 26 samples.

Results

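The collagen genes were followed through the expression tables and peak lists of a study of ZBTB24 and DNMT3B in HCT116, a human colorectal cancer cell line. Members were the genes of the authors' assembled annotation whose whole name was COL, digits, A and digits, as in COL6A1. This gave 44 genes of 26281 named genes on the main chromosomes. The antisense genes COL18A1-AS1, COL18A1-AS2 and COL4A2-AS1, the pseudogenes COL6A4P1 and COL6A4P2 and the unrelated gene COL4A3BP did not match the rule and were left out.

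RNA-seq was run on 12 libraries. Of these, 3 came from cells with a lentiviral hairpin against ZBTB24 (shZBTB24) and 3 from cells with a non-targeting hairpin (shNT). A further 4 came from clonal lines, 2 with FLAG-tagged ZBTB24 and 2 with only the FLAG tag, each grown from a single cell. The last were 1 library of HCT116 cells with a genetic knockout of DNMT3B and 1 of wild-type cells with neither tag nor hairpin. Hairpin and FLAG lines were selected in puromycin, and the labels give no such step for the knockout or the wild type. For ChIP-seq, a FLAG antibody was used on 7 lines, of which 3 carried FLAG-ZBTB24, 2 carried FLAG-DNMT3B and 2 had only the tag, and each had an input library. The FLAG proteins were expressed from added constructs, so the peaks are those of tagged and not of endogenous protein. Clone and construct cannot be told apart in the FLAG groups. The labels do not say whether the 3 replicates of a hairpin were grown apart, so the authors' p-values there may measure technical spread only. In bulk RNA, fewer cells of a kind and less RNA per cell cannot be told apart.

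Collagens are extracellular proteins in which 3 alpha chains wind into a triple helix, and each gene encodes 1 alpha chain. Fibrillar collagens form the fibrils of connective tissue, type IV collagens form the sheet of the basement membrane, and type VI collagens form beaded filaments around cells. FACIT collagens sit on the surface of fibrils, and transmembrane collagens such as COL13A1 and COL17A1 stay attached to the cell that makes them. Most fibrillar collagen in the gut wall comes from fibroblasts, while epithelial cells contribute basement membrane chains. DNMT3B is a methyltransferase that adds methyl groups to the C of CG dinucleotides, often inside transcribed genes, and ZBTB24 is a zinc finger protein that binds DNA. Mutations in either gene cause ICF syndrome, a disorder of immunity and of chromosome structure.

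Each expression value is in FPKM, fragments scaled to transcript length and to library size, so levels can be compared between genes, and each is 1 pooled value per group. No value per library was used here, so no standard deviation is given. Depth is unknown. The smallest absolute log2 fold change listed was 0.50 for the hairpin and FLAG comparisons and 1 for the knockout. Loci listed for the hairpin comparison also had a deposited unadjusted p of at most 0.0549. For a gene with no entry, no change, too few reads and no test cannot be told apart. The threshold was a q-value under 0.05 in the authors' deposited table. For the knockout, q compares 1 library with 1 library and not the conditions.

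The targeted genes were looked up first. ZBTB24 had no entry for the knockdown, so the hairpin could not be checked in these values. The locus shared by ZBTB24 and MICAL1 rose from 17.8 FPKM with the tag alone to 155 FPKM with FLAG-ZBTB24 (q = 0.0192), per the authors' deposited table. DNMT3B had no entry under the knockout's own label. Its entry stood under a second label, DNMT3BKOshZB, at 21.1 FPKM in wild type and 6.46 FPKM (q = 0.676), per the authors' deposited table.

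Of the 44 collagen genes, 23 (52.3%) were listed in at least 1 table, a share not computed for all named genes. The other 21 were COL1A1, COL1A2, COL2A1, COL3A1, COL4A1, COL4A2, COL4A5, COL5A3, COL6A5, COL6A6, COL8A1, COL9A1, COL10A1, COL11A1, COL11A2, COL15A1, COL19A1, COL22A1, COL23A1, COL27A1 and COL28A1. The main chains of connective tissue fibrils, COL1A1, COL1A2 and COL3A1, were thus listed in no table. Neither were COL4A1 and COL4A2, the chains found in nearly all basement membranes. Collagen genes were long, with a median body of 133 kb against 16.9 kb for the other named genes, and their longest gene models had a median of 48 exons against 6. Of their 2051 distinct exons, 474 (23.1%) were exactly 54 bp long, against 0.367% of the exons of other genes, and 60.3% had a length that 9 divides, against 12.8%. Such lengths hold whole repeats of the Gly-X-Y triplet, the sequence unit of the triple helix.

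Knockdown of ZBTB24 was followed by lower levels of several collagen genes. COL6A3, a chain of type VI collagen, fell from 3.14 to 1.08 FPKM (log2 fold change -1.54, q = 0.00493), per the authors' deposited table. COL18A1, a basement membrane collagen whose end fragment is endostatin, fell from 20.9 to 9.84 FPKM (log2 fold change -1.09, q = 0.0139), per the authors' deposited table. COL12A1, a FACIT collagen, fell from 2.73 to 1.51 FPKM (log2 fold change -0.85, q = 0.0437), per the authors' deposited table. These were 3 falls among 8 listed collagen loci, where 9.82% of all 1965 listed loci fell past the threshold. COL18A1 shares its locus with the antisense genes COL18A1-AS1 and COL18A1-AS2, and whether strand was used in counting is not known here, so their reads cannot be told apart. No listed collagen gene rose past it, where 12.2% of all listed loci did.

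The other 5 listed collagen loci of the knockdown did not pass the threshold. All 8 had an unadjusted p under 0.05, 2 of them higher and 6 lower, where 53.5% and 43.5% of all listed loci did. Of all 1965 listed loci, 1907 had such a p and the largest deposited p was 0.0549. The count of 8 was thus nearly set by the listing itself. The transmembrane collagen COL13A1 was at 18.9 FPKM with shNT and 10.2 FPKM with shZBTB24 (q = 0.0509), per the authors' deposited table. COL26A1 was at 1.36 and 0.456 FPKM (log2 fold change -1.57, q = 0.0952), per the authors' deposited table, the largest difference of the 8 in size. The type IV chain COL4A4 was at 2.11 and 1.30 FPKM (q = 0.135), per the authors' deposited table. Only COL17A1 and COL5A2 had higher values with the knockdown among these 8 loci. COL17A1, a transmembrane collagen of hemidesmosomes, the anchors of epithelial cells to the basement membrane, was at 3.96 and 10.5 FPKM (log2 fold change 1.41, q = 0.0660), per the authors' deposited table. The locus of COL17A1 also holds the small RNA gene MIR936. COL5A2, a minor fibrillar chain whose locus also holds MIR3129, was at 0.305 and 0.710 FPKM (log2 fold change 1.22, q = 0.0622), per the authors' deposited table. Of the 8 loci 6 were lower, while 55.0% of all listed loci were higher. Among lower loci alone, the median log2 fold change was -0.99 for the 6 collagen loci and -0.76 for all 884. Of all 44 collagen genes, 13.6% were listed as lower and 4.55% as higher, against 3.61% and 4.44% of all named genes.

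**Figure D1:**
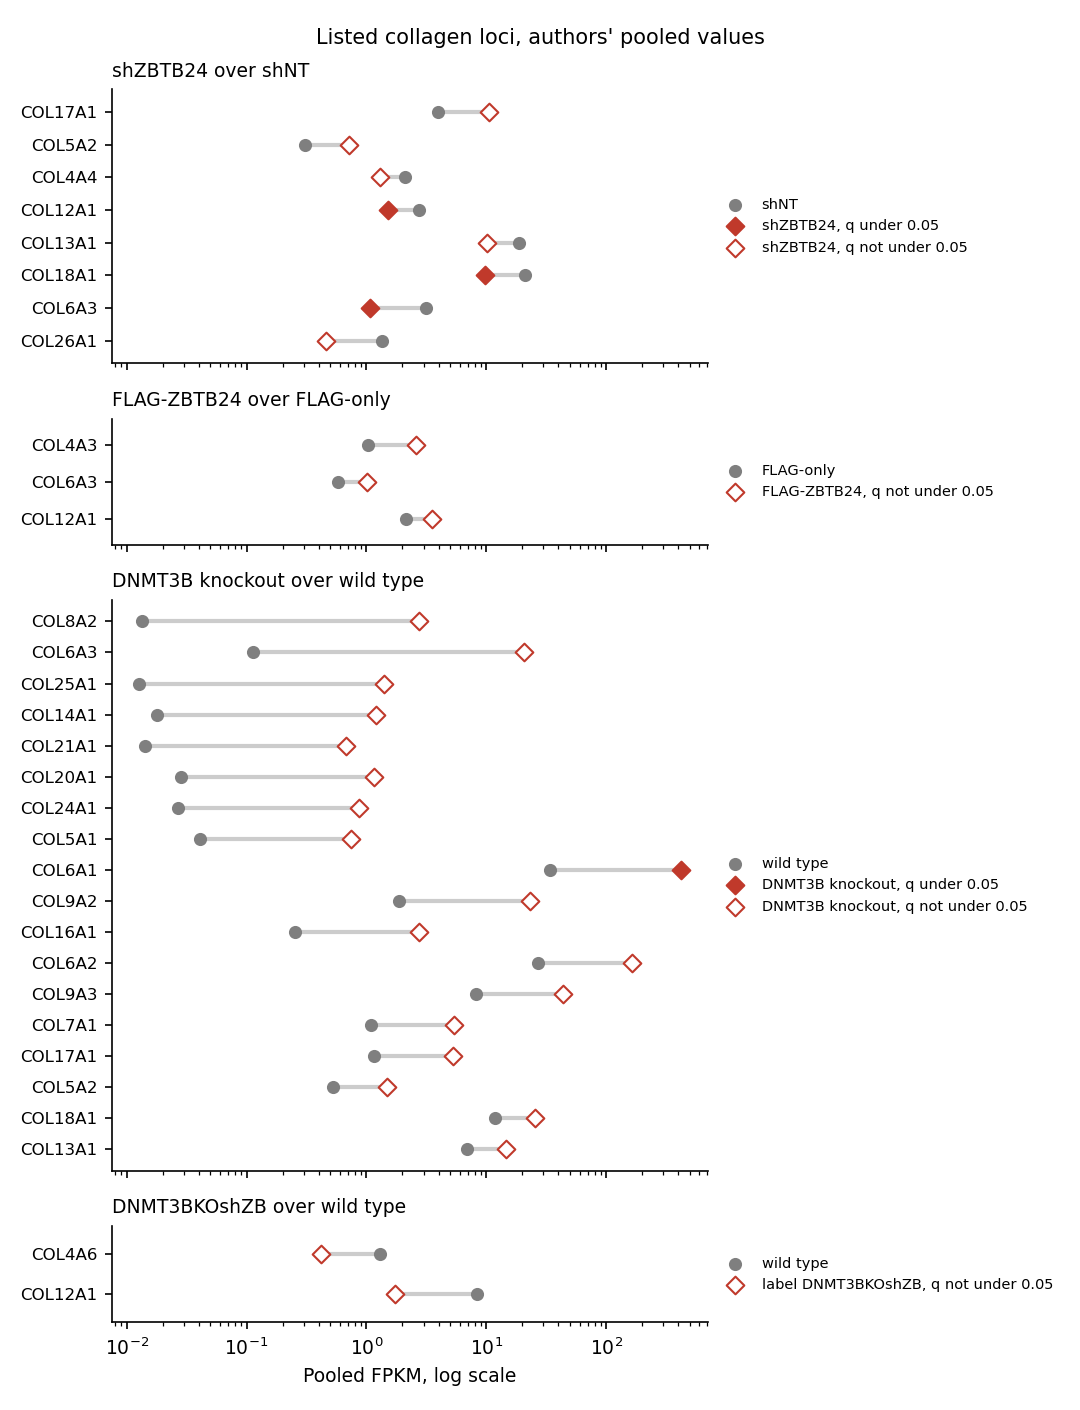
Pooled FPKM (log scale) of the 31 listed collagen entries, by comparison. Grey circles are the first group and diamonds the second, filled where q was under 0.05. Of 8 loci, 6 lie lower with shZBTB24, and the 18 knockout loci all lie higher, as every locus under that label does.

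With added FLAG-ZBTB24, 3 collagen loci were listed, all with higher values than with the tag alone and none past the threshold or at an unadjusted p under 0.05. Over all 1754 listed loci of that comparison, 0.228% rose and 0.342% fell past the threshold. By unadjusted p under 0.05, 3.48% were higher and 6.44% lower. COL6A3 was at 0.582 FPKM with the tag alone and 1.01 FPKM with FLAG-ZBTB24 (log2 fold change 0.80, q = 0.967), per the authors' deposited table. COL12A1 was at 2.13 and 3.56 FPKM (log2 fold change 0.74, q = 0.848), per the authors' deposited table. The type IV chain COL4A3 was at 1.02 and 2.62 FPKM (log2 fold change 1.36, q = 0.997), per the authors' deposited table. The locus of COL4A3 ran 43.0 kb past the gene's annotated ends and overlapped MFF, so its reads cannot be assigned to COL4A3 alone. The listed shares were 6.82% of the 44 collagen genes as higher and 0 as lower, against 3.41% and 3.81% of all named genes.

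In the DNMT3B knockout library, 18 collagen loci were listed as higher than in wild type, or 40.9% of the 44 genes, against 9.09% of all named genes. Every locus under the knockout's label was higher, so the shared direction is set by the label and is no result. Of the 18, only COL6A1 was past the threshold, where 0.312% of the 2243 listed loci were, and COL6A1 and COL6A2 had an unadjusted p under 0.05, where 9.36% did. COL6A1, a chain of type VI collagen, was 12.3-fold higher in the knockout, at 418 FPKM against 33.9 FPKM (log2 fold change 3.62, q = 0.00636), per the authors' deposited table. Its partner chain COL6A2, whose start lies 116370 bp away on the same strand of chromosome 21, was at 27.2 and 164 FPKM (log2 fold change 2.59, q = 0.144), per the authors' deposited table. The third chain of that protein, COL6A3 on chromosome 2, was at 0.113 and 20.8 FPKM (log2 fold change 7.53, q = 0.559), per the authors' deposited table. In wild type COL6A3 was thus far below its partner chains, and in the knockout all the chains of the classical type VI trimer were above 20 FPKM.

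Among the FACIT collagens, 6 of 10 genes were listed as higher in the knockout, where 9.09% of all named genes were. COL9A2, a cartilage collagen chain, was at 1.88 and 23.04 FPKM, and its partner COL9A3 was at 8.16 and 43.5 FPKM, per the authors' deposited table. The locus of COL9A3 ran 20.6 kb past the gene and overlapped TCFL5 and DPH3P1. COL16A1 was at 0.252 and 2.75 FPKM, per the authors' deposited table. The other FACIT members started near 0. COL14A1 was at 0.0181 and 1.20 FPKM, COL20A1 at 0.0284 and 1.17 FPKM and COL21A1 at 0.0142 and 0.674 FPKM, per the authors' deposited table. A single FACIT gene, COL12A1, stood under the label DNMT3BKOshZB, which holds lower loci only.

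Of the 11 fibrillar genes, COL5A1, COL5A2 and COL24A1 were listed as higher in the knockout, where 9.09% of all named genes were. All stayed at low levels. COL5A1, which helps to set fibril diameter together with COL5A2, was at 0.0413 and 0.748 FPKM, per the authors' deposited table. The locus of COL5A1 ran 27.8 kb past the gene and overlapped LOC101448202 and the MIR3689 genes, so its reads cannot be assigned to COL5A1 alone. COL5A2 was at 0.530 and 1.49 FPKM, per the authors' deposited table. COL24A1 was at 0.0270 and 0.870 FPKM, per the authors' deposited table. The short-chain network collagen COL8A2, best known from the basement membrane of the cornea, had the largest fold change of the 18, from 0.0135 to 2.75 FPKM (log2 fold change 7.67, q = 0.707), per the authors' deposited table. Thus the largest fold changes sat on wild-type levels near 0, and the locus past the threshold, COL6A1, was ninth by fold change.

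Transmembrane collagens were listed as higher in the knockout for 3 of 4 genes, where 9.09% of all named genes were. COL25A1, first described in amyloid plaques, was at 0.0128 and 1.41 FPKM, COL17A1 at 1.15 and 5.29 FPKM and COL13A1 at 6.85 and 14.7 FPKM, per the authors' deposited table. COL7A1, the collagen of the fibrils that anchor skin to its basement membrane, was at 1.09 and 5.34 FPKM, per the authors' deposited table at a locus that also holds MIR711. COL18A1 was at 11.9 and 25.5 FPKM, per the authors' deposited table, at a locus that also holds antisense genes. None of the 6 type IV chains was listed as higher in the knockout, where 9.09% of all named genes were, so a count of 0 among 6 genes says little. The median log2 fold change of the 18 loci was 3.62, against 2.12 over all 2243 listed loci. With a pseudocount of 1 FPKM added to both groups, the medians were 1.40 and 1.17. The median wild-type level was 0.391 FPKM, against 0.695 FPKM for all listed loci, and 55.6% of the collagen loci were under 1 FPKM in wild type, against 56.8%. In the knockout, 15 of the 18 collagen loci were at 1 FPKM or above.

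The label DNMT3BKOshZB matches none of the samples, and its 1112 loci were each below wild type. Of the collagen genes, 2 (4.55%) stood there, against 4.51% of all named genes, and neither was past the threshold, where 0.360% of its loci were. COL12A1 had an unadjusted p under 0.05, where 9.98% of its loci did. COL12A1 stood at 1.74 FPKM under that label against 8.41 FPKM for wild type (log2 fold change -2.28, unadjusted p = 0.03, q = 0.334), per the authors' deposited table. COL4A6, a type IV chain on chromosome X, was at 1.30 and 0.414 FPKM (log2 fold change -1.65, q = 0.807), per the authors' deposited table. Since the labels split by direction, it cannot be told whether these are falls of the knockout.

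Markers of other cell types were set beside these values. Of 14 fibroblast and mesenchymal markers, 5 were listed as higher in the knockout, where 9.09% of all named genes were, and their summed level came to 641 FPKM in the knockout and 5.98 FPKM for wild type, per the authors' deposited table. Most of that sum was VIM, the intermediate filament vimentin, at 3.80 and 629 FPKM (q = 0.188), per the authors' deposited table, followed by ZEB1, TWIST1, SNAI2 and PDGFRB. The fibroblast and mesenchymal markers DCN, LUM, PDGFRA, THY1, FAP, POSTN, TAGLN and CDH2 were not listed. Of 12 colon epithelial markers, KRT20 was listed as higher, and CDH1, CDX2, EPCAM, KRT8 and KRT18 were lower under the label DNMT3BKOshZB, where 4.51% of all named genes were, with the cell adhesion gene CDH1 at 27.3 and 6.10 FPKM (q = 0.267), per the authors' deposited table. None of these epithelial markers passed the threshold under either label. KRT19, CDX1, VIL1, LGALS4, CEACAM5 and LGR5 were not listed. With the knockdown, the mesenchymal factor SNAI2 fell from 2.41 to 0.743 FPKM (q = 0.0238), CDH1 fell from 46.3 to 23.2 FPKM and CDX2 rose from 6.90 to 18.8 FPKM, per the authors' deposited table. Of all loci listed for the knockdown, 9.82% fell and 12.2% rose past the threshold. With FLAG-ZBTB24, VIM, CDH1 and KRT20 were listed as higher and the macrophage marker CD68 as lower, none past the threshold. ACTA2 stood under the label DNMT3BKOshZB. CD68 was also listed as higher in the knockout, and no endothelial marker was listed. The part of these markers in the collagen values was not tested.

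In all, 6 collagen genes were listed under more than 1 label, a count that was not set beside the share of all named genes. COL6A3 and COL12A1 were lower with shZBTB24 and higher with FLAG-ZBTB24, with log2 fold changes of -1.54 and 0.80 for COL6A3 and of -0.85 and 0.74 for COL12A1, per the authors' deposited tables. Only the knockdown values passed the threshold, and whether the 2 effects differ was not tested. COL13A1, COL18A1 and COL6A3 were lower with the knockdown and listed as higher in the knockout library. COL12A1 was lower with the knockdown and stood under the label DNMT3BKOshZB, which holds lower loci only. COL17A1 and COL5A2 were higher in both, with log2 fold changes of 1.41 and 2.20 for COL17A1 and of 1.22 and 1.49 for COL5A2, per the authors' deposited tables. Direction under these knockout labels is set by the label, so a shared or opposite direction with the knockdown is no result. None of these values under the knockout labels passed the threshold. In the knockdown, COL13A1, COL17A1 and COL5A2 did not pass it either. The hairpin, FLAG and knockout comparisons have separate controls, while the labels DNMT3BKO and DNMT3BKOshZB share the wild type.

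The controls themselves differed for these genes. COL6A3 was at 3.14 FPKM with shNT, 0.582 FPKM with the tag alone and 0.113 FPKM in wild type, per the authors' deposited tables, a range of 27.9-fold. That range is wider than the knockdown's own 2.91-fold difference and narrower than the 185-fold difference of the knockout library. For the other 5 genes the controls ranged from 1.74-fold for COL5A2 to 3.95-fold for COL12A1. It is not known whether the tables were normalized together, so levels across them are descriptive.

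**Figure D2:**
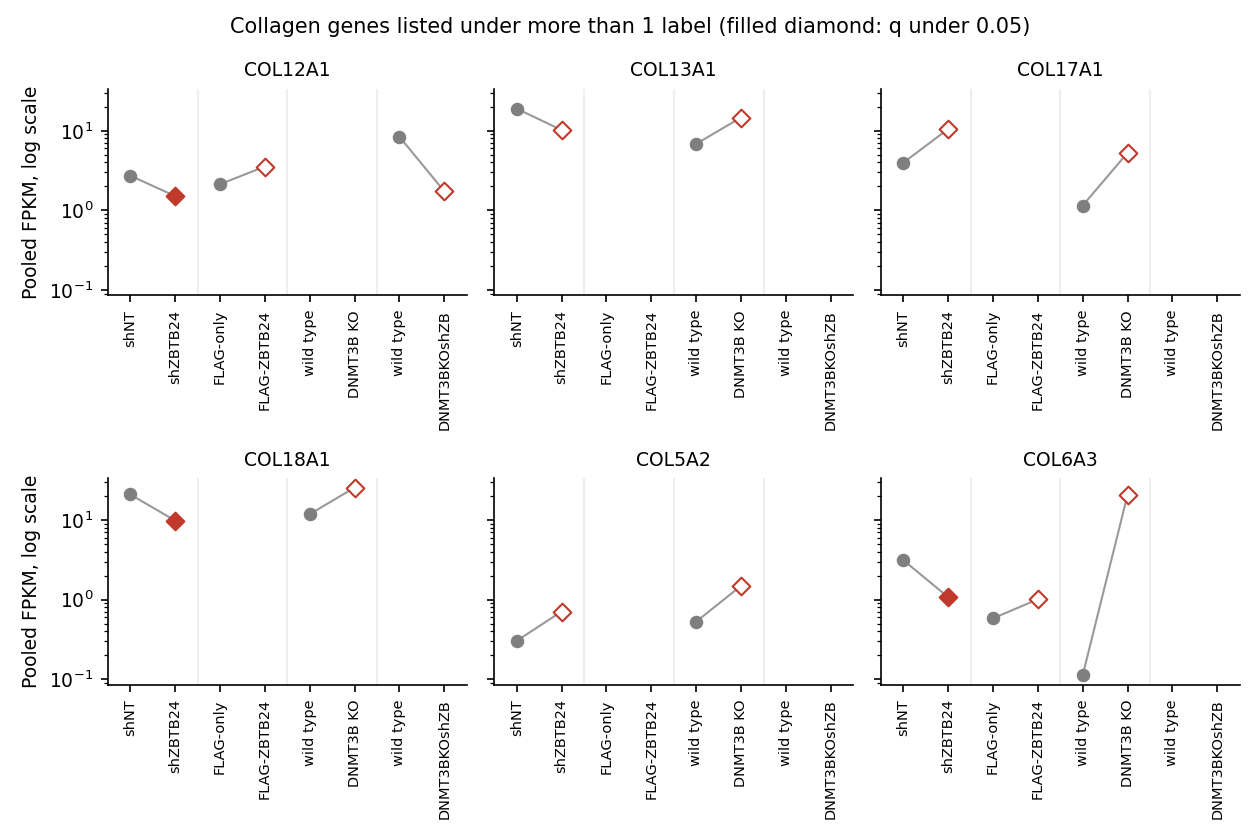
Pooled FPKM (log scale) of the 6 collagen genes listed under more than 1 label, by group; lines join the groups of 1 comparison. COL6A3 spans 0.113 to 20.8 FPKM, and its control levels differ between tables.

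The start sites of 4 collagen genes listed as higher in the knockout are shown because they differ widely in CG content, CG being the dinucleotide that DNMT3B methylates. COL18A1, a listed member with more than 1 RefSeq promoter, had the highest count, 37, and is not shown. COL8A2 and COL17A1 had the highest and the lowest count among listed members with a single RefSeq promoter, and COL6A2 and COL6A3 encode chains of the same protein. Each line gives the 250 bases before the start, 5′ to 3′ on the gene's strand, with every CG in capitals, from RefSeq on GRCh38.p14. The windows are chr1:36125223-36125472 on the minus strand for COL8A2 and chr21:46097862-46098111 on the plus strand for COL6A2. For COL6A3 and COL17A1 they are chr2:237414165-237414414 and chr10:104085881-104086130, both on the minus strand.
COL8A2: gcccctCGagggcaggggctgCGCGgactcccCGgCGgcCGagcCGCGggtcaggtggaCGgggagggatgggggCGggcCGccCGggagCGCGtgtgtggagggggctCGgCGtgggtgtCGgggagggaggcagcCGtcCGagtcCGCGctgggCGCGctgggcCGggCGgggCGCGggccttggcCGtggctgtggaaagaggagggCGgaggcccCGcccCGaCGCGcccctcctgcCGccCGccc
COL6A2: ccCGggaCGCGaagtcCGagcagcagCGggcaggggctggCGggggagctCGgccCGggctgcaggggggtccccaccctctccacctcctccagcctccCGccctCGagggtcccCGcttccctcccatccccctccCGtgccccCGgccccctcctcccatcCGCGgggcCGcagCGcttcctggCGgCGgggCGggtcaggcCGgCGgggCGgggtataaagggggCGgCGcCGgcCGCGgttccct
COL6A3: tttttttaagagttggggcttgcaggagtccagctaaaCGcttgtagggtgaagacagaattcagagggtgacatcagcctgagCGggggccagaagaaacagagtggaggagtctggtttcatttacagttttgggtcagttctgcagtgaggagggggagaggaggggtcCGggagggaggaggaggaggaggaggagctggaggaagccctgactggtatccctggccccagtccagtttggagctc
COL17A1: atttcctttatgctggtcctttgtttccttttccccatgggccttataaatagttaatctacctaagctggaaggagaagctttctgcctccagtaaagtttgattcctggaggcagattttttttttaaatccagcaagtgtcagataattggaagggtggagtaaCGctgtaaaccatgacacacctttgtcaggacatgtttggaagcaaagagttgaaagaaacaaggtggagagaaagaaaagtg

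The window of COL8A2 held 35 CG and that of COL6A2 held 28, while COL6A3 had 3 and COL17A1 had 1. COL6A2 and COL6A3 thus differed in CG content although both were listed as higher in the knockout. CG was searched on both strands, where it reads the same. RefSeq promoters were matched for 32 of the 44 genes, of which 8 had several, and the promoter with the most CG was taken. Those not matched were COL1A1, COL1A2, COL2A1, COL3A1, COL5A2, COL6A1, COL6A5, COL8A1, COL9A3, COL14A1, COL20A1 and COL22A1. At least 1 CG was found in all 32, and in 94.2% of all genes with a promoter sequence. At least 10 were found in 78.1% of the 32 collagen genes and in 54.9% of all genes. The 13 collagen genes listed as higher in the knockout had a median of 16 CG, from 1 to 37, and the 19 others had a median of 17, from 1 to 40. All 1581 genes listed as higher in the knockout had a median of 20 and all 27305 genes with a promoter sequence a median of 12. Listed and other collagen genes thus overlapped over nearly their whole range.

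**Figure D3:**
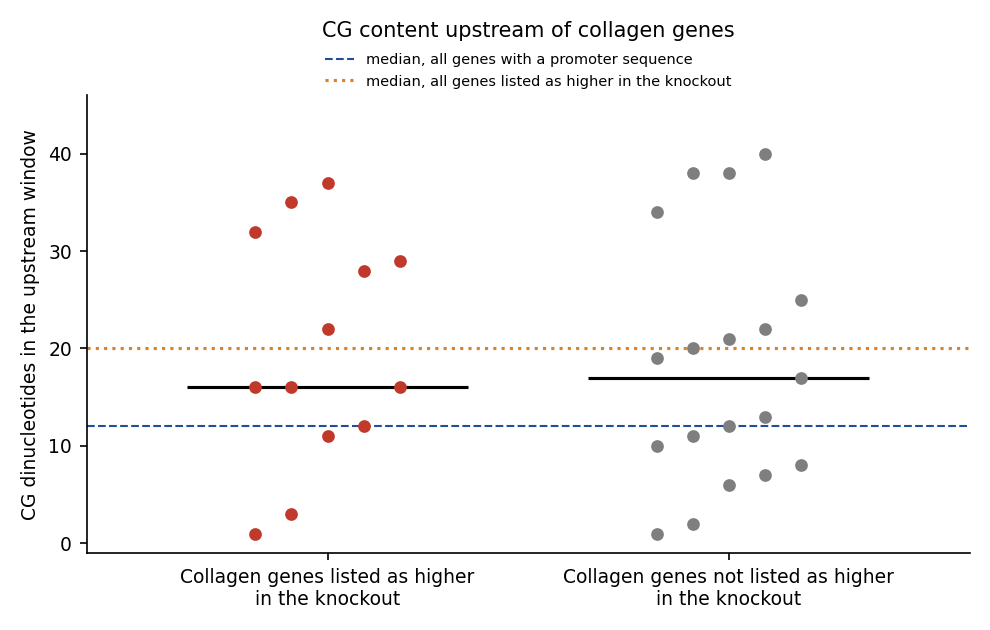
Number of CG dinucleotides in the 250 bases upstream of 32 collagen genes, split by listing as higher in the knockout. Points are genes and black bars are medians, 16 and 17, set beside the medians of all genes (12) and of all genes listed as higher (20).

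DNMT3B peaks were rare in collagen genes. A peak was counted at a promoter where its midpoint lay within 1000 bp of a transcript start, and in the body where it lay inside a transcript and farther from the starts. The authors merged peaks over libraries, so there is 1 list per factor, in hg19 coordinates, and what the peak score measures is not stated in the sources. Of the 44 collagen genes, 2 (4.55%) held a DNMT3B peak in the body, against 22.0% of all named genes. The count was 4 where any overlap was enough and 0 where only peaks above the median score were kept. None held one at the promoter, against 0.472% of all named genes, so a count of 0 among 44 genes says little. COL1A1 held 2 peaks, on chromosome 17 from 48269769 to 48271252 and from 48272742 to 48274163, with midpoints in introns 8.49 and 5.55 kb from its start. Together they covered 2906 bp of a gene of 17544 bp. COL18A1 held 1 peak of 492 bp on chromosome 21 from 46896413 to 46896904, in an intron 21.2 kb from the nearest start. All 3 scores, from 3.21 to 3.36, were below the list's median of 3.39.

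Collagen genes were also compared with named genes of like length. In genes of over 150 kb, 0 of 20 collagen genes held a DNMT3B body peak, against 23.7% of all named genes of that length. From 50 to 150 kb it was 1 of 11 (9.09%) against 40.7%, and under 50 kb 1 of 13 (7.69%) against 17.4%. Over all collagen bodies there were 0.474 DNMT3B peaks per Mb, against 11.8 per Mb over all named genes, not matched for length. By length it was 0 against 3.26 per Mb over 150 kb, 0.91 against 17.9 from 50 to 150 kb and 5.58 against 25.0 under 50 kb. The share of genes with a DNMT3B peak differed with their level. Of all single-gene loci listed for the knockout table, 1.44% held a DNMT3B body peak where wild type was under 1 FPKM, 16.4% from 1 to 10 FPKM and 46.1% at 10 FPKM or above. Among the collagen loci there with a single gene symbol, it was 0 of 10, 0 of 5 and 1 of 3 in the same order. These include COL12A1 and COL4A6 of the label DNMT3BKOshZB and leave out COL7A1 and COL17A1, whose loci carry a second symbol. The last class held COL6A1 and COL6A2 without a peak and COL18A1 with one. COL1A1 was listed in no table, so its level is not known here. The part of length and level in the low share of collagen genes was not tested.

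**Figure D4:**
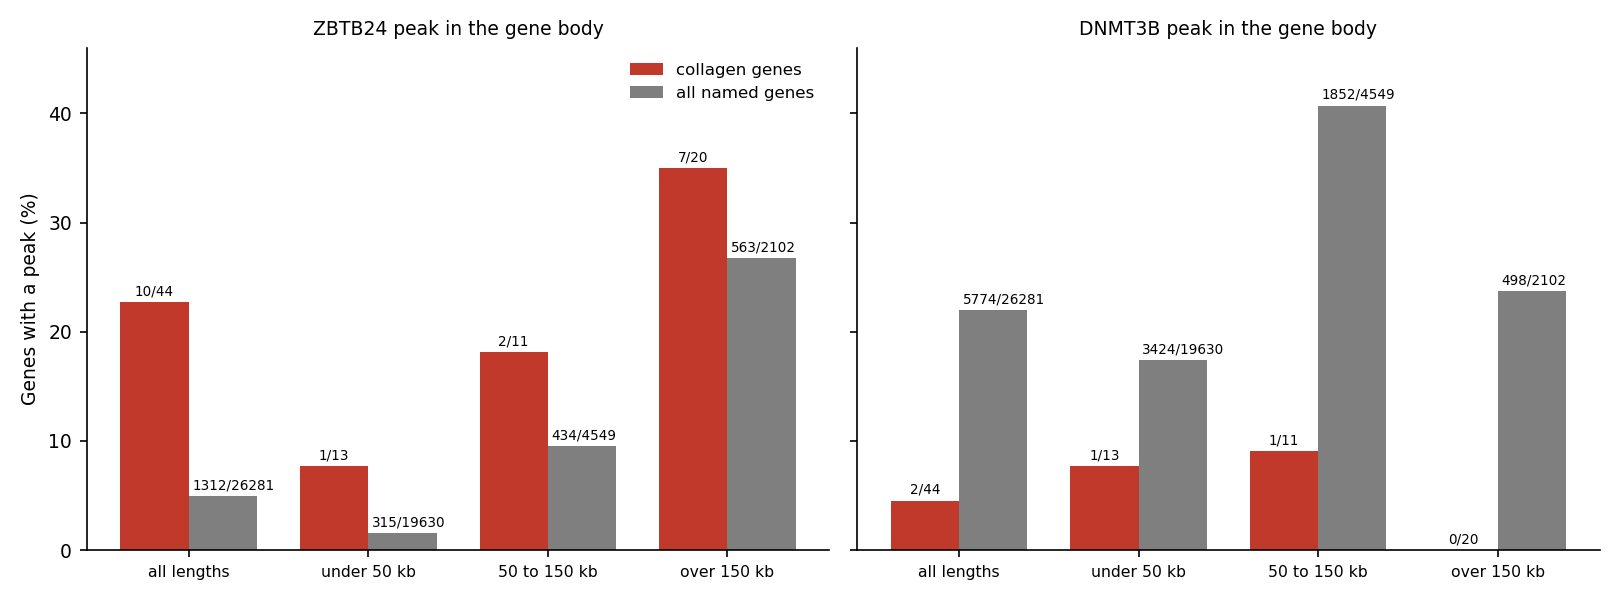
Share of genes (%) with a ZBTB24 (left) or DNMT3B (right) peak in the body, by body length, for collagen genes and all named genes. Counts stand on the bars. For DNMT3B, collagen genes lie below all genes in each class, at 2 of 44 over all lengths.

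ZBTB24 peaks lay in the bodies of 10 collagen genes (22.7%), against 4.99% of all named genes, and at the promoter of 1 (2.27%), against 3.74%. With promoter and body together it was the same 10 genes, against 8.50% of all named genes. By body length, over 150 kb, 7 of 20 collagen genes (35%) held a body peak against 26.8% of all named genes, from 50 to 150 kb 2 of 11 (18.2%) against 9.54%, and under 50 kb 1 of 13 (7.69%) against 1.605%. The 22 peaks had a median score of 7.68, against 8.26 for the list, and 10 of them were above it. By midpoint, 18 lay in introns and 3 in exons. The list held 0 peaks on chromosome X, where COL4A5 and COL4A6 lie.

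COL24A1, a fibrillar collagen gene of 427 kb on chromosome 1, held 6 of the 22 peaks. At least 6 were held by 12 of the 26281 named genes, all 12 among the 2102 genes of over 150 kb. Its highest peak, from 86284071 to 86284447, scored 31.3, at percentile 99.3 of the ZBTB24 list, in an intron 338 kb from the start. The other 5 scored from 7.77 to 10.03, and 2 of those lay next to each other, from 86307618 to 86307733 and from 86307788 to 86307930. COL24A1 thus had 1.404 peaks per 100 kb, against a mean of 0.135 over all named genes of over 150 kb. Without COL24A1, the collagen genes of over 150 kb had 2.25 body peaks per Mb, against 3.28 with it and 1.35 for all named genes of that length. COL24A1 was listed only for the knockout, at 0.0270 and 0.870 FPKM, per the authors' deposited table.

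COL3A1, a fibril chain of skin and vessels, was the one collagen gene with a ZBTB24 promoter peak. That peak lay on chromosome 2 from 189838407 to 189838592, 0.599 kb upstream of the start, with a score of 5.22 at percentile 4.15 of the list. COL3A1 also held 3 body peaks, 2 of them in exons, with scores from 5.78 to 8.94, and the gene was listed in no table. Its neighbour COL5A2, 19.2 kb away, held 1 intron peak with a score of 8.57. COL6A3 held a peak on chromosome 2 from 238319767 to 238319910, in an intron 3.01 kb from its start, with a score of 7.59. COL6A3 was the only one of the 3 collagen genes that fell with the knockdown to hold a ZBTB24 peak, and 11.4% of all 193 loci that fell held one. COL26A1, which held a peak and was lower without passing the threshold, had a like fold change. COL19A1 held 3 intron peaks, COL14A1 and COL25A1 2 each and COL4A2, COL21A1 and COL26A1 1 each, with scores from 4.49 to 9.71. Of the 8 collagen loci listed for the knockdown, 3 (COL5A2, COL6A3 and COL26A1) held a ZBTB24 peak, against 10.4% of all listed loci with a named gene. Of the 18 listed for the knockout, 6 did, against 13.2%. Collagen genes are longer than most, and the part of length in these shares was not tested.

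**Figure D5:**
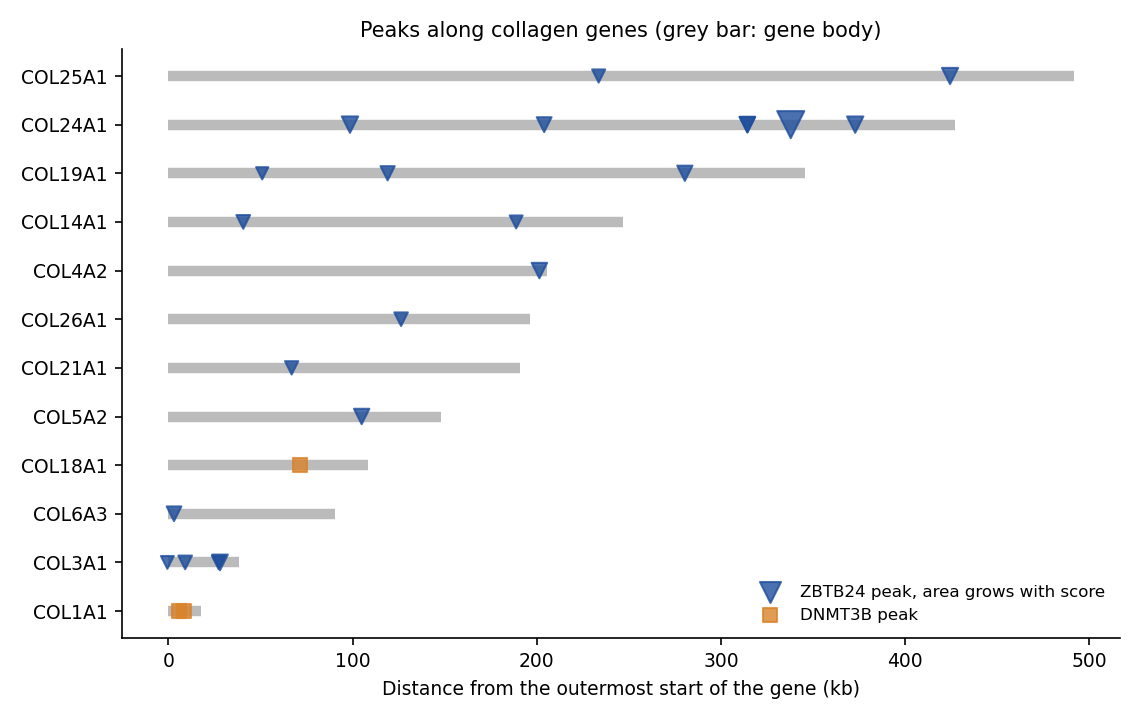
Positions of ZBTB24 peaks (triangles, area growing with score) and DNMT3B peaks (squares) along the 12 collagen genes that hold one, in kb from the outermost start. COL24A1 carries 6 ZBTB24 peaks, and DNMT3B peaks lie in COL1A1 and COL18A1.

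Collagen genes that lie side by side were compared next. Type IV genes stand head to head in pairs, and the starts lay 127 bp apart for COL4A1 and COL4A2, 6 bp for COL4A3 and COL4A4 and 347 bp for COL4A5 and COL4A6. In none of these pairs were both members listed in the same table. COL4A4 was listed as lower with the knockdown and COL4A3 as higher with FLAG-ZBTB24, none past the threshold. On chromosome 21, COL18A1, COL6A1 and COL6A2 lie on the same strand with 468 kb between COL18A1 and COL6A1, and all were listed as higher in the knockout. On chromosome 20, COL9A3 and COL20A1, 452 kb apart, were both listed there too. On chromosome 2, COL5A2 was listed for the knockdown and the knockout, and COL3A1 was not.

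Genes that make, process, bind or break down collagen were read from fixed lists. Their counts stand beside 9.09% of all named genes listed as higher in the knockout and 4.51% as lower under the label DNMT3BKOshZB. For the knockdown, 4.44% of all named genes were listed as higher and 3.61% as lower, and for FLAG-ZBTB24 3.41% and 3.81%. Of 20 enzymes and chaperones of synthesis, none passed the threshold. The prolyl hydroxylases P4HA1, P4HA3 and P3H1 and the glycosyltransferase COLGALT2 were listed as higher in the knockout, with P3H1 at 12.1 and 32.7 FPKM, per the authors' deposited table. P3H1 was at 28.2 FPKM with shNT and 19.3 FPKM with shZBTB24, and its partner CRTAP at 17.9 and 11.4 FPKM (q = 0.215 and 0.0883), per the authors' deposited table. SERPINH1, the collagen chaperone HSP47, was at 40.8 FPKM with the tag alone and 24.4 FPKM with FLAG-ZBTB24 (q = 0.715), per the authors' deposited table. Of 15 genes of procollagen cleavage and crosslinking, 7 were listed as higher in the knockout, 2 as lower under the label DNMT3BKOshZB, 3 for the knockdown and 3 for FLAG-ZBTB24, with 0 past the threshold. The crosslinking enzyme LOXL2 was at 47.6 and 21.4 FPKM with the knockdown (q = 0.110) and at 17.9 and 57.1 FPKM in the knockout comparison (q = 0.612), per the authors' deposited tables.

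Past the threshold, 12.2% of all loci listed for the knockdown rose and 9.82% fell. Of 13 collagen receptors, ITGA2, the alpha chain of a collagen-binding integrin, rose from 27.9 to 47.1 FPKM (q = 0.0404) with the knockdown, and LAIR1, an inhibitory receptor for collagen, fell from 0.689 to 0.199 FPKM (q = 0.0316), per the authors' deposited table. The receptor kinase DDR2 was at 0.302 FPKM with the tag alone and 2.60 FPKM with FLAG-ZBTB24 (q = 0.115), per the authors' deposited table. MRC2 was listed as higher in the knockout, and CD44, ITGA2 and ITGB1 as lower under the label DNMT3BKOshZB. Of 13 genes of collagen breakdown, the collagenase MMP1 fell from 13.2 to 2.89 FPKM and TIMP3, an inhibitor of such enzymes, fell from 5.46 to 2.66 FPKM with the knockdown (q = 0.00493 for each), per the authors' deposited table. MMP10 was also listed as lower there and did not pass. MMP1 was at 6.13 and 0.0340 FPKM with FLAG-ZBTB24 (q = 0.967), per the authors' deposited table, so it was listed as lower in both. The collagenases MMP13 and MMP9 were listed as higher in the knockout, MMP13 at 0.0224 and 9.81 FPKM, per the authors' deposited table, and so were TIMP2 and TIMP3. Of 19 partners in the basement membrane, 7 were listed as higher in the knockout, with the collagen-binding protein SPARC at 0.250 and 78.4 FPKM and NID1, which links laminin to type IV collagen, at 0.0797 and 8.84 FPKM, per the authors' deposited table, 0 past the threshold. LAMB1 and LAMA5 stood under the label DNMT3BKOshZB, and no member was listed for the knockdown. With FLAG-ZBTB24, SPARC was at 0.660 and 2.30 FPKM (q = 0.250), per the authors' deposited table, and LAMA2 and LAMA4 were listed as lower.

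DNMT3B body peaks were found in 10 of the 20 synthesis genes (50%), 8 of the 19 basement membrane partners (42.1%), 4 of the 13 receptors, 2 of the 15 cleavage and crosslinking genes and 2 of the 13 breakdown genes, beside 22.0% of all named genes. These shares were not matched for gene length or level. Both P3H1 and CRTAP held such a peak, as did FN1, LAMA5 and LAMB1. ZBTB24 body peaks were found in 0 of the synthesis genes and 4 of the 19 basement membrane partners, LAMA2, LAMA3, LAMA4 and NID1. The cleavage and crosslinking genes (1 of 15), receptors (1 of 13) and breakdown genes (1 of 13) also held some, beside 4.99% of all named genes. The ZBTB24 shares were not matched for gene length either, and 26.8% of all named genes of over 150 kb held such a peak.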

How the data were processed

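RNA-seq (12 libraries) and FLAG ChIP-seq (7 libraries with 7 inputs) of HCT116 cells were read from the processed tables. Per the submitters' processing notes, the build was hg19 and the tools were MACS2, Cufflinks, HISAT2 and StringTie, in versions not given in the sources used here. Deposited expression tables hold FPKM, pooled per group by the authors, and the log2 fold change, p-value and q-value are also those the authors deposited. Each deposited peak carries a score from the authors. Stranded libraries were made, per the labels' protocols, but no source states whether counting used the strand.

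Groups came from sample titles. Loci were matched by gene symbol, split on commas, and a locus with several symbols was counted once. Log2 fold changes recomputed from FPKM differed from the deposited ones by at most 4.7e-05. Peaks were assigned to transcripts of the assembled annotation with Python 3.11.15 and pandas 2.3.3, and the assignment was tested on simulated data, where all 200 results equalled an exhaustive search. Peak shares were set beside those of all named genes in 3 classes of body length (edges at 50 and 150 kb). Alternatives were q under 0.1, an unadjusted p under 0.05, pseudocounts of 1 and 0.1, a minimum of 1 FPKM, promoter windows of 500 and 2000 bp, other overlap rules, a score filter and reference transcripts only. Named were all listed collagen genes, those with a ZBTB24 peak or a DNMT3B body peak, and for other lists the members past the threshold or, where fewer than 3 passed, up to 3 with the largest change, plus some chosen after their values were seen. The members and lists were chosen with earlier results of these data known. No test across libraries was run, since each group has 1 pooled value. No column of values lacked a group or a comparison.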

Additional observations from a re-analysis of the deposited data

How the results depend on the processing

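No paired analysis was possible because the tables hold 1 pooled value per group, and for the same reason no library could be left out. Under q below 0.1, the knockdown gave 5 lower and 2 higher collagen loci in place of 3 and 0. Under an unadjusted p below 0.05 it gave 6 and 2, which is every listed collagen locus. Nearly all loci listed for the knockdown had such a p, so that alternative says little there. By unadjusted p, 2 loci passed in the knockout in place of 1, and 1 under the label DNMT3BKOshZB in place of 0. With a pseudocount of 1, the median log2 fold changes were -0.63 for the knockdown, 0.54 for FLAG-ZBTB24, 1.40 for the knockout and -1.24 for the label DNMT3BKOshZB, and with a pseudocount of 0.1 they were -0.85, 0.71, 2.85 and -1.83. Among loci that reached 1 FPKM in some group the medians were -0.89 for the knockdown and 3.44 for the knockout, and with single-symbol loci -0.89 and 3.90. No direction reversed among the counts and medians under the alternatives run. For the 31 locus values the only alternative was a pseudocount of 1, which cannot reverse a direction. The ZBTB24 promoter count fell from 1 to 0 with a window of 500 bp or only peaks above the median score, which also gave 6 genes with a ZBTB24 body peak in place of 10 and 0 with a DNMT3B body peak in place of 2. Any overlap gave 4 genes with a DNMT3B body peak, adding COL17A1 and COL10A1, whose peaks had midpoints outside the gene (for COL10A1 in NT5DC1). Counting a count as moved when it changed by over 1.5 times and a median or fold change when its second decimal changed, 43 counts and medians stayed within that and 23 moved, and all 31 locus values moved. Low FPKM and unknown depth limit the fold changes of loci near 0 in wild type.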
